A study of Mus musculus with 200 samples.

Results

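The genes described here are 7 apolipoproteins and serum carrier proteins, Apoa1, Apoa4, Apom, Apoe, Apob, Ttr and Rbp4, out of 25006 or 25229 gene rows per table. They were taken by gene symbol from every deposited expression table, and all 7 were present in each. In the embryoid body (EB) table, which names no genes, they were placed by its row order. The members were chosen by their TPM in the GSK-J4 comparisons, already known from these data, and as products of endoderm, so their values in the GSK-J4 comparisons and between the 2 control lineages are given as a description, with no test.

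Apolipoproteins coat lipoprotein particles and carry lipids between tissues, while transthyretin (Ttr) and retinol-binding protein (Rbp4) travel in plasma as a complex that carries retinol and thyroid hormone. In the adult these proteins come mostly from liver. In the early mouse embryo they are products of the visceral endoderm, the layer that the primitive endoderm (PrE) forms around the epiblast (Epi), where they serve in the supply of lipids and vitamins before there is a placenta.

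Messenger RNA of about 10 to 100 cells per library was amplified by Smart-seq2 and reported as TPM, a level per transcript length scaled to a fixed total per library. The 200 libraries of naturally mated mouse embryos, partly grown on in a 3D culture, and of EB fall into 70 groups in 7 tables. At E4.5 and E5.0, Epi of embryos treated with GSK-J4, which blocks Kdm6a and Kdm6b, the enzymes that remove methyl groups from H3K27, was compared with wild-type Epi (3 libraries each). For the E5.0 design, blastocysts were treated at E3.5 with 50 µM. Suz12 Eed double knockout embryos, which lack 2 core subunits of the H3K27 methyltransferase PRC2, were compared with wild type at E5.0 in PrE and in Epi (3 libraries each). For the transcription factor Zbtb17 there were E5.0 Epi after dTAG treatment, E4.5 Epi labelled as knockout by title but as dTAG treatment in another label, both against wild type (3 each), and Zbtb17 KO against wild-type EB on days 0, 1, 2 and 3 (2 each). A screen of E5.0 Epi held 119 libraries of 39 single or double knockouts and 29 wild-type controls in 10 batches, and every knockout group was set against wild type of the same batch. The titles of batch 8 (Bend3) give stage 6.0, while its stage label gives E5.0. Knockouts were made in the embryo with C-CRISPR, which cuts 1 gene at several places, so embryos were edited directly and no clone was selected. This concerns the embryos, while the Zbtb17 KO libraries of EB share 1 name in their titles on all days and may come from 1 line. No source used here says which cells of an embryo were edited or whether replicates shared embryos. P-values measure only the spread between these libraries, which may in part be technical.

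The labelled lineages were checked against marker sums. The 20 PrE markers summed to between 4477 and 7853 TPM in the 6 PrE libraries, where 12 epiblast markers summed to at most 438 TPM. In the 166 E5.0 Epi libraries the PrE sum was between 66.1 and 3083 TPM with a median of 410 TPM, and the epiblast sum between 451 and 3395 TPM. The 13 trophectoderm and extraembryonic markers exceeded the epiblast sum in 155 of those 166 libraries, and the PrE markers did in 37, so most libraries labelled Epi also held RNA of other lineages by these markers. Decidua and stroma markers reached at most 24.2 TPM there. In bulk libraries, fewer cells of a type and less RNA per cell cannot be told apart, and the part of PrE cells in each difference below was not tested, so the PrE marker sum is given beside the main ones. Libraries 1 and 2 of control PrE were almost identical (r = 0.9938, median difference 0.1604 on the log2 scale) and counted as 1. The 3 Aurkb KO libraries were treated likewise, so Aurkb has values and no test. The 2 EB libraries of each group were about as alike (r between 0.9908 and 0.9938, median difference 0.08 to 0.1238) and were kept as 2. Their spread may thus be technical, and p-values in EB are to be read with that limit. Of 41 targeted genes in the screen, 17 were lower in every knockout than in every control library, 16 overlapped, among them Ssrp1, Wt1, Ets2, Chd4, Zfp57, Lmo2 and Zbtb17, and 8 were higher, among them Ascl2, Ovol2 and the Bend3 of batch 7. Whole-transcript TPM do not show whether a reading frame was cut, and an RNA level does not check a protein depleted by dTAG.

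Apoa1, Apoa4 and the related Apoc3 lie side by side on chromosome 9 of the mm10 genome, in the GENCODE vM21 annotation. Apoa1 is at chr9:46228580-46230466 on the plus strand, Apoc3 at chr9:46232933-46235636 on the minus strand and Apoa4 at chr9:46240696-46243459 on the plus strand. Apob is at chr12:7977648-8016835 (plus), Apom at chr17:35128997-35132050 (minus), Apoe at chr7:19696109-19699188 (minus) and Rbp4 at chr19:38116629-38125281 (minus), and each is a protein-coding gene. The sequences upstream of the first annotated exon of Apoa1, Apoa4 and Apob are shown because Apoa1 and Apoa4 are neighbours whose levels parted in several comparisons, and Apob is the scaffold of the large lipoproteins. They are the parts outside annotated exons of RefSeq promoters (250 bases before the start, build GRCm38.p6), at chr9:46228380-46228579, chr9:46240594-46240695 and chr12:7977427-7977647, on the plus strand, 5′ to 3′. Capitals mark matches on either strand to CAAAGNNCA, the motif of the nuclear receptor HNF4, and to the TATA box TATAAA.
Apoa1: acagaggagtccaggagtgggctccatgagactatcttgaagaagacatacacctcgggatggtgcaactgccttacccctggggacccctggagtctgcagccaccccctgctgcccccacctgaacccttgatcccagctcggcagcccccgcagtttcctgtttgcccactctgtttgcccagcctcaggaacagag
Apoa4: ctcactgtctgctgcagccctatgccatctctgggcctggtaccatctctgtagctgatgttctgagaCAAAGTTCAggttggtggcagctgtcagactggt
Apob: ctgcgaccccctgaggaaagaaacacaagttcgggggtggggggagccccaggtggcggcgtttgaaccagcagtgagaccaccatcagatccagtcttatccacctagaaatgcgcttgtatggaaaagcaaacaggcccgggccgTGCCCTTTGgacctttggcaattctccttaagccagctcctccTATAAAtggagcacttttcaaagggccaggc
The HNF4-type match of Apoa4 reads forward and that of Apob on the other strand, and the shown Apoa1 stretch holds none of the motifs searched. CAAAGNNCA occurred in 5.488% and TATAAA in 12.368% of 32851 mouse promoter windows of 250 bases. The GATA-type letters AGATAA or TGATAA occurred in 16.596% and the forkhead-type TGTTTAC in 3.166%, and neither is in the stretches shown. These matches are letters in a window and not measured binding.

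Control PrE carried all 7 transcripts, most of them at a level far above control Epi of the same table. Apoa1, the main protein of high-density lipoprotein, was at 1086, 1043 and 949 TPM in control PrE, against 11.8, 17.7 and 9 TPM in control Epi. Ttr was at 1459, 1671 and 1282 TPM in control PrE, against 0.36, 3.9 and 5.21 TPM in control Epi. No library of one lineage reached the other for either gene.
Apom, which carries sphingosine-1-phosphate on lipoproteins, was at 1064, 1258 and 988 TPM in control PrE, against 8.23, 5.54 and 6.71 TPM in control Epi. Apoa4, a protein of chylomicrons and high-density lipoprotein, was at 155, 155 and 124 TPM in control PrE, against 1.79, 0.585 and 0.174 TPM in control Epi. Both were apart in every library. Rbp4 was at 55.9, 54.5 and 35.5 TPM in control PrE, against 10.1, 2.31 and 3.35 TPM in control Epi. Apob was low even in control PrE, at 2.29, 2.2 and 3.25 TPM.
Apoe, the ligand of the LDL receptor family, which many cell types make, had the highest level in both, at 3097, 2912 and 2804 TPM in control PrE, against 433, 538 and 342 TPM in control Epi. On the log2(TPM + 1) scale the differences ran from 1.88 for Apob to 8.68 for Ttr, with 2.75 for Apoe. All 7 genes were higher in control PrE, where 18.5% of all 11748 genes tested were called higher (adjusted p under 0.05), and nothing is read from that count because the genes were chosen as endoderm products.

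**Figure D1:**
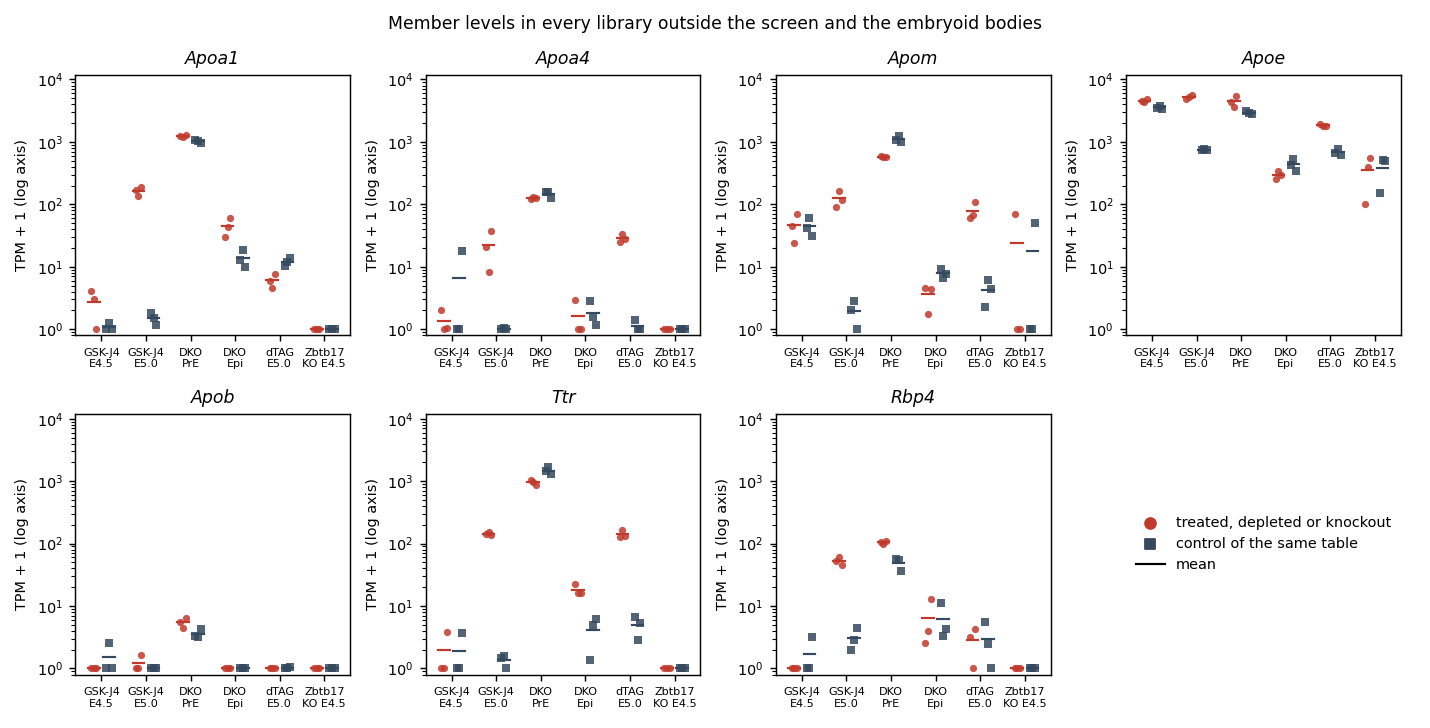
TPM + 1 on a log axis of each of the 7 genes in every library outside the screen and the EB, with treated, depleted or knockout libraries left of the control libraries of the same table. Points are libraries as deposited, and short bars in the colour of each group are their means. Apoa1 and Ttr are at 884 TPM or more in PrE of both genotypes, between 133 and 189 TPM in GSK-J4 treated Epi at E5.0, and at most 3.09 TPM at E4.5, where treated and control Epi of the GSK-J4 pair have Apoe at 3380 TPM or more.

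At E5.0, GSK-J4 treated Epi carried 6 of the 7 transcripts at levels above those of control Epi. Apoa1 was at 170, 133 and 189 TPM in treated Epi, against 0.789, 0.496 and 0.172 TPM in control Epi. Ttr was at 141, 151 and 136 TPM in treated Epi, against 0.449, 0.606 and 0 TPM in control Epi. Every treated library was above every control library for both.
Rbp4 was at 51, 60.6 and 44.4 TPM in treated Epi, against 0.995, 1.85 and 3.4 TPM in control Epi. Apom was at 91.3, 165 and 117 TPM in treated Epi, against 1.04, 1.87 and 0 TPM in control Epi. The treated libraries were again all higher, though Apom varied among them more than Ttr did.
Apoa4 was at 20, 7.17 and 36.1 TPM in treated Epi, against 0, 0.0337 and 0 TPM in control Epi. Apoe was at 4800, 5226 and 5592 TPM in treated Epi, against 741, 757 and 744 TPM in control Epi. Apob was at or under 0.65 TPM in both groups. The log2 changes were 6.80 for Apoa1, 6.76 for Ttr, 6.08 for Apom, 4.20 for Apoa4, 4.17 for Rbp4 and 2.80 for Apoe, beside a median of 0.12 over all genes tested. All 6 genes tested were called higher, as were 16.5% of all 10681 genes, and nothing is read from that count.
The PrE marker sum was 3010, 2975 and 3083 TPM in treated Epi, against 230, 243 and 238 TPM in control Epi. The epiblast sum was 790, 852 and 881 TPM in treated Epi, against 1871, 1845 and 1827 TPM in control Epi.

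Uptake receptors and regulators known from visceral endoderm rose in the same libraries. Of 19 PrE markers tested 18 rose and 0 fell, and of 9 receptor genes 5 rose and 0 fell (limma with Benjamini-Hochberg adjustment). Of all genes 16.5% were called higher, and counts of a list near that share are not read as a change of the list. Dab2, Amn and Cubn, parts of the endocytic receptor complex that takes up high-density lipoprotein and vitamin carriers, averaged 526, 220 and 35.7 TPM in treated Epi, against 6.53, 3.31 and 1.09 TPM in control Epi, and these 3 are in the PrE list as well. Lrpap1, the chaperone of those receptors, averaged 1678 TPM in treated Epi, against 59.3 TPM in control Epi.
Of 9 endoderm and liver regulators 7 rose and 0 fell. Gata6, Gata4 and Sox7 averaged 16.4, 32.3 and 45.6 TPM in treated Epi, against 0, 0.261 and 0.529 TPM in control Epi, and the liver factor Creb3l3 26.7 TPM against 0.482 TPM. Hnf4a, an activator of apolipoprotein genes in liver, reached at most 1.63 TPM in treated Epi and was listed at 0 in control Epi.
Of 13 genes of lipoprotein assembly and efflux 5 rose and 1 fell. Mttp, which loads lipid onto Apob, averaged 8.64 TPM in treated Epi, against 0.287 TPM in control Epi, and the cholesterol esterifying enzyme Soat2 averaged 69.4 TPM in treated Epi, against 2.3 TPM in control Epi. The lipase Lpl was listed at 0 in treated Epi, against a mean of 3.58 TPM in control Epi.
Not all carriers shared the change. Of 6 other apolipoproteins Clu and Apool rose and Apoa2 fell, the last to a listed 0 in treated Epi, against a mean of 9.37 TPM in control Epi. Of 4 other serum proteins tested F2, prothrombin, rose to 15.7 TPM in treated Epi, against 0.0382 TPM in control Epi. Of 11 retinoid handling genes Dhrs3 and Rara rose and Cyp26a1, which degrades retinoic acid, fell to 71.4 TPM in treated Epi, against 151 TPM in control Epi.

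At E4.5 the PrE markers were present and most of the carriers were not. The PrE sum was 2661, 2823 and 2857 TPM in GSK-J4 treated Epi, against 2344, 2108 and 2212 TPM in control Epi, of the same order as in treated Epi at E5.0. Dab2 was between 270 and 305 TPM in treated Epi and between 341 and 400 TPM in control Epi, and Sox17 between 101 and 131 TPM in treated Epi and between 45.4 and 78.7 TPM in control Epi. Both groups labelled Epi thus held PrE transcripts at this stage.
Apoa1 was at 3.09, 2 and 0 TPM in treated Epi, against 0, 0.246 and 0 TPM in control Epi. Ttr was at 0, 0 and 2.89 TPM in treated Epi, against 0, 0 and 2.76 TPM in control Epi. Rbp4 was listed at 0 in treated Epi, against 0, 0 and 2.14 TPM in control Epi. These 3 genes were near 0 in both groups, and the groups overlapped.
Apoa4 was at 1, 0 and 0.0388 TPM in treated Epi, against 0, 0 and 17 TPM in control Epi, where 1 library held all of it. Apom was at 44.4, 23 and 69.4 TPM in treated Epi, against 41.5, 60.4 and 30.1 TPM in control Epi, so it was present in both and overlapped. Apoe was at 4541, 4296 and 4856 TPM in treated Epi, against 3537, 3780 and 3380 TPM in control Epi, a log2 change of 0.36 with no overlap. It was the 1 gene called of the 2 tested, where 1.17% of all 9982 genes were called in either direction. Nothing is read from that call, which was lost with no filter and with any 1 of the 6 libraries left out. The E4.5 and E5.0 tables were normalized separately, and the change between stages was not tested.

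In PrE, which kept the carriers after loss of Suz12 and Eed, Apoe rose, and calls for Apom, Ttr and Rbp4 depended on the fit. Both targets were lower in the double knockout, Suz12 at 13.1 to 17.5 TPM in double knockout PrE and 28.4 to 30.3 TPM in control PrE. Apoe was at 4281, 3653 and 5398 TPM in double knockout PrE, against 3097, 2912 and 2804 TPM in control PrE, with no overlap. It was the 1 of 7 genes that passed, higher by 0.60 ± 0.19 (log2, SE; adjusted p = 0.0335, limma with Benjamini-Hochberg adjustment), where 26.6% of all 11354 genes were called and 21.4% were called higher.
Apoa1 was at 1243, 1218 and 1302 TPM in double knockout PrE, against 1086, 1043 and 949 TPM in control PrE. The groups did not overlap, but the log2 change of 0.32 had an interval of -0.25 to 0.88 (adjusted p = 0.396, limma). Ttr was at 1050, 982 and 884 TPM in double knockout PrE, against 1459, 1671 and 1282 TPM in control PrE, all lower, with a log2 change of -0.55 and an interval of -1.48 to 0.39 (adjusted p = 0.379, limma).
Apom was at 603, 563 and 572 TPM in double knockout PrE, against 1064, 1258 and 988 TPM in control PrE, again with no overlap. Its log2 change of -0.89 ± 0.33 (SE) did not pass (adjusted p = 0.0572, limma). Rbp4 was at 103, 96.6 and 111 TPM in double knockout PrE, against 55.9, 54.5 and 35.5 TPM in control PrE, a log2 change of 1.21 that did not pass (adjusted p = 0.127, limma).
Apoa4 was at 119, 132 and 126 TPM in double knockout PrE, against 155, 155 and 124 TPM in control PrE, and Apob at 4.48, 3.47 and 5.43 TPM in double knockout PrE, against 2.29, 2.2 and 3.25 TPM in control PrE. Neither passed (adjusted p = 0.84 and 0.23, limma). When the PrE libraries were fitted without the Epi libraries, 4 of the 7 genes were called, namely Apoe and Rbp4 higher and Apom and Ttr lower. The share of all genes called in that fit was not kept, so nothing is read from this count. In the fit of all 4 groups, the Apoe call was lost when any 1 of 4 of the PrE libraries was left out.
The median log2 change of all genes tested in this comparison was 0.401, and the PrE marker sum was 6815, 6973 and 7853 TPM in double knockout PrE, against 4890, 4905 and 4477 TPM in control PrE. The trophectoderm sum was 1936, 1917 and 2030 TPM in double knockout PrE, against 725, 797 and 496 TPM in control PrE, and its part was not tested.

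Other genes of the pathway were called in PrE as well, where 26.6% of all genes were called and 21.4% were called higher. Counts of a list near these shares are not read as a change of the list. Of 12 receptors tested 6 rose and 0 fell, among them Amn, at a mean of 291 TPM in double knockout PrE, against 82.6 TPM in control PrE, and Scarb1, the high-density lipoprotein receptor, at 9.41 TPM against 2.16 TPM. Of 11 other serum proteins 5 rose and 1 fell (limma with Benjamini-Hochberg adjustment). The complement inhibitor Serping1 averaged 12.3 TPM in double knockout PrE, against 1.19 TPM in control PrE, and the clotting factor F10 11.2 TPM against 1.55 TPM.
Of 7 other apolipoproteins Clu rose to a mean of 55.2 TPM in double knockout PrE, against 2.46 TPM in control PrE, and Apoc1 fell to 71.8 TPM in double knockout PrE, against 133 TPM in control PrE. Of 14 assembly genes 3 rose, among them the Apob partner P4hb and the export receptor Surf4, and the esterifying enzyme Soat1 fell to 84.7 TPM in double knockout PrE, against 203 TPM in control PrE. Sox17 rose to 47.2 TPM in double knockout PrE, against 10 TPM in control PrE.

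In Epi of the same table Apoa1 and Ttr rose, and a lower Apom depended on the fit. Apoa1 was at 29.4, 42.5 and 58.8 TPM in double knockout Epi, against 11.8, 17.7 and 9 TPM in control Epi. All double knockout libraries were above all controls, by 1.68 ± 0.24 on the log2 scale (SE; adjusted p = 0.000439, limma). Ttr was at 21.8, 15.1 and 15.1 TPM in double knockout Epi, against 0.36, 3.9 and 5.21 TPM in control Epi, higher by 2.39 ± 0.39 (log2, SE) and with no overlap. Too few controls reached 1 TPM for Ttr to pass the filter without the double knockout libraries.
Apom was at 3.6, 0.777 and 3.43 TPM in double knockout Epi, against 8.23, 5.54 and 6.71 TPM in control Epi and was lower in all 3 (log2 change -1.23). It was called, with too few double knockout libraries at 1 TPM to pass the filter without the controls. The Apom change did not pass without control Epi replicate 1 (adjusted p = 0.0716, limma), with no filter (adjusted p = 0.0698, limma) or with only the compared groups fitted (adjusted p = 0.0974, limma). Apoe was at 251, 343 and 294 TPM in double knockout Epi, against 433, 538 and 342 TPM in control Epi, where 1 pair overlapped. Its log2 change of -0.55 did not pass (adjusted p = 0.0597, limma), and passed with the replicate number as a block (adjusted p = 0.0295, limma) or without control Epi replicate 3 (adjusted p = 0.0292, limma).
Rbp4 was at 1.59, 2.96 and 12 TPM in double knockout Epi, against 10.1, 2.31 and 3.35 TPM in control Epi, and overlapped. Apoa4 was at most 1.97 TPM and Apob at most 0.0214 TPM in any of the 6 libraries, and both were under the filter. Of 5 genes tested 3 were called, where 9.13% of all 11250 genes were called in either direction. The highest Apoa1 level in double knockout Epi, 58.8 TPM, lay far below the lowest in PrE of either genotype, 949 TPM.
The PrE marker sum was 310, 288 and 314 TPM in double knockout Epi, against 146, 169 and 137 TPM in control Epi, and the trophectoderm sum 5173, 5719 and 6155 TPM in double knockout Epi, against 1629, 1724 and 1593 TPM in control Epi. Of 9 PrE markers tested Cubn and Cited1 rose. Of the regulators Pparg, a lipid-sensing nuclear receptor, averaged 7.19 TPM in double knockout Epi and was listed at 0 in control Epi.

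The effect of the double knockout differed between the lineages for 3 of the 7 genes, where 19.1% of all 13172 genes differed. The log2 change in PrE minus that in Epi was -1.36 ± 0.36 for Apoa1 (adjusted p = 0.0158, limma, but 0.0551 without control PrE replicate 1 and 0.0605 with no filter) and -2.93 ± 0.59 for Ttr (adjusted p = 0.00372, limma). It was 1.14 ± 0.26 for Apoe (adjusted p = 0.00727, limma). The log2 change was thus more positive in Epi for Apoa1 and Ttr, and more positive in PrE for Apoe.

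Zbtb17 was perturbed in 4 settings by the labels, and the calls for the carriers were not alike in them. The Zbtb17 transcript was higher after dTAG treatment, at 5.77 to 6.94 TPM against 1.67 to 5.20 TPM in control Epi, where RNA does not check the depleted protein. In libraries labelled Zbtb17 KO it was at 0.0122 to 14.2 TPM in the screen, against 0.312 to 4.21 TPM in controls, and at 0 to 1.12 TPM at E4.5, against a listed 0 in controls, so both overlapped. In EB it was lower in the knockout on every day, at 9.89 to 10.1 TPM at day 1, against 20.8 to 23.4 TPM in wild-type EB. After dTAG treatment, E5.0 Epi carried more Ttr, Apom, Apoa4 and Apoe, and not more Apoa1. Ttr was at 129, 163 and 131 TPM in dTAG treated Epi, against 5.69, 1.9 and 4.27 TPM in control Epi, higher by 4.92 ± 0.31 (log2, SE; adjusted p = 5.42e-06, limma). Apom was at 60.3, 67.6 and 106 TPM in dTAG treated Epi, against 1.27, 5.2 and 3.48 TPM in control Epi (log2 change 4.27, adjusted p = 6.23e-05, limma). Both were apart in every library.
Apoa4 was at 23.9, 32.2 and 26.8 TPM in dTAG treated Epi, against 0.418, 0 and 0 TPM in control Epi, and passed the filter of 1 TPM only through the treated libraries. Apoe was at 1924, 1806 and 1801 TPM in dTAG treated Epi, against 669, 766 and 627 TPM in control Epi (log2 change 1.43, adjusted p = 1.65e-06, limma). Each treated library was higher for both genes.
Apoa1, the neighbour of Apoa4, was at 5, 3.58 and 6.54 TPM in dTAG treated Epi, against 9.37, 10.8 and 12.8 TPM in control Epi. Each treated library was below each control, but the log2 change of -1.01 did not pass (adjusted p = 0.116, limma). Apoa1 made up between 2.15% and 4.74% of the summed TPM of Apoa1 and Ttr in dTAG treated Epi, against 62.2% to 85% in control Epi.
Rbp4 was at 2.24, 0 and 3.23 TPM in dTAG treated Epi, against 4.48, 1.5 and 0 TPM in control Epi, with an interval of the log2 change from -1.62 to 1.62. Apob was at most 0.052 TPM. Of 6 genes tested 4 were called, with Apoa4 among them for the reason given, where 11.8% of all 10658 genes were called and 7.32% called higher, with a median log2 change of 0.141.
The PrE sum was 589, 530 and 586 TPM in dTAG treated Epi, against 133, 132 and 119 TPM in control Epi, and 6 of 15 PrE markers rose and 1 fell. Dab2 averaged 75.5 TPM in dTAG treated Epi, against 5 TPM in control Epi, the cholesterol enzyme Soat2 11.7 TPM against 0.895 TPM, the iron carrier Trf 77.4 TPM against 15.5 TPM, and Apoc2, the activator of lipoprotein lipase, 291 TPM against 134 TPM. Of 11 trophectoderm markers 9 rose.

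In the screen's Epi labelled Zbtb17 KO, where 30.3% of all genes were called, Apoa1 and Rbp4 fell. Apoa1 was at 14.5, 0 and 0.373 TPM in Zbtb17 KO Epi, against 44.6, 54 and 37.9 TPM in the controls of batch 6, a log2 change of -4.05. Rbp4 was at 5.58, 0 and 9.7 TPM in Zbtb17 KO Epi, against 86.9, 98.4 and 83.7 TPM in controls (log2 change -4.45). Both were called in the fit over the screen. For both, too few knockout libraries reached 1 TPM to pass the filter without the controls. The knockout libraries were lower throughout, and these controls held the highest Apoa1, Ttr and Rbp4 means of the 10 control groups.
Apoa4 was at 26.2, 2.81 and 18.9 TPM in Zbtb17 KO Epi, against 1.37, 3.93 and 1.09 TPM in controls, so 1 knockout library lay within the control range. It was called higher (log2 change 2.13, adjusted p = 0.000323, limma). In a fit of batch 6 alone, neither Apoa1 nor Apoa4 passed (adjusted p = 0.0543 and 0.211, limma). Ttr was at 27.5, 37.3 and 60.5 TPM in Zbtb17 KO Epi, against 66.5, 67.2 and 66.7 TPM in controls, lower in each library and not called (adjusted p = 0.139, limma). The PrE sum was between 899 and 1354 TPM in Zbtb17 KO Epi, against 674 to 788 TPM in controls.
Apoa4 was thus higher and Apoa1 not higher in both E5.0 settings, while Ttr was called higher after dTAG treatment only. The settings were not tested against each other, as their tables were normalized separately.
At E4.5, in libraries with 3986 to 4952 genes at 1 TPM or more, Apoe was at 99.8, 400 and 554 TPM in the libraries labelled Zbtb17KO, against 153, 503 and 494 TPM in controls (log2 change -0.26, interval -1.86 to 1.34, adjusted p = 0.955, limma). Apom was at 70.2, 0 and 0 TPM in those libraries, against 0, 0 and 50 TPM in controls, and the other 5 genes were listed at 0 in all 6. Only 0.131% of 4576 genes, 6 in number, were called there, and 358 had an unadjusted p under 0.05.

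In EB, aggregates of cultured cells followed over days, the wild type carried Ttr, Apoa1, Apob and Rbp4 at low levels on days 2 and 3. Zbtb17 KO EB carried less Ttr, Apoa1 and Apob on both days, and Rbp4 was called lower at day 3. The day 0 libraries stand apart, with few genes detected and 97.6%, 97.5% and 97.7% of all genes tested called when wild-type days 1, 2 and 3 were set against it. A change from day 0 is therefore not read for the 7 genes, and the comparison of genotypes within a day is given.
Ttr was at 0 and 0 TPM in Zbtb17 KO EB at day 2, against 7.01 and 8.43 TPM in wild-type EB, which alone carried Ttr past the filter that day. At day 3 it was at 1.12 and 2.02 TPM in Zbtb17 KO EB, against 15 and 16.9 TPM in wild-type EB (log2 change -2.74 ± 0.15, SE; adjusted p = 3.3e-08, limma). No knockout library reached a wild-type library.
Apoa1 was at 0.871 and 1.3 TPM in Zbtb17 KO EB at day 2, against 4.53 and 3.9 TPM in wild-type EB (log2 change -1.33). That call was lost with quantile normalization (adjusted p = 0.0815, limma). At day 3 Apoa1 was at 1.15 and 0.178 TPM in Zbtb17 KO EB, against 11.9 and 11.4 TPM in wild-type EB (log2 change -2.99). On both days too few knockout libraries reached 1 TPM, so wild-type EB carried Apoa1 past the filter. The gap was called wider at day 3 (difference of the log2 changes -1.66), where 17.4% of all genes were called. No p is given for it, for the same reason of the filter. That call was lost with quantile normalization (adjusted p = 0.29, limma). Without wild-type replicate 1 or 2, which left 1 library a day in that genotype, the difference was -1.73 and -1.60.
Apob was at 0.325 and 0.476 TPM in Zbtb17 KO EB at day 3, against 3.7 and 3.53 TPM in wild-type EB, which alone carried it past the filter of 1 TPM. Rbp4 was at 0.926 and 2.69 TPM in Zbtb17 KO EB at day 2, against 3.11 and 3.32 TPM in wild-type EB, a log2 change of -0.66 that did not pass (adjusted p = 0.106, limma). It was at 1.08 and 1.64 TPM in Zbtb17 KO EB at day 3, against 5.47 and 4.04 TPM in wild-type EB (log2 change -1.28, adjusted p = 0.00391, limma). Both were lower in each knockout library at day 3. Apoa4 was at 0 and 0.0757 TPM in Zbtb17 KO EB at day 3, against 0.769 and 1.01 TPM in wild-type EB, under the filter.
Apoe followed another course. At day 1 it was at 1260 and 1196 TPM in Zbtb17 KO EB, against 1507 and 1489 TPM in wild-type EB (log2 change -0.29, adjusted p = 0.000281, limma). At day 2 it was at 935 and 924 TPM in Zbtb17 KO EB, against 789 and 816 TPM in wild-type EB (log2 change 0.21, adjusted p = 0.00171, limma). It was lower at the earlier day and higher at the later one, and that difference passed as well (0.50 ± 0.06, adjusted p = 0.000111, limma).
Apom stayed between 2.16 and 20.1 TPM over all days and both genotypes. At day 2 it was at 3.93 and 4.62 TPM in Zbtb17 KO EB, against 2.16 and 3.11 TPM in wild-type EB, and was called higher (log2 change 0.55, adjusted p = 0.0124, limma). That call was lost with quantile normalization (adjusted p = 0.0572, limma) and without wild-type replicate 1 or either knockout replicate (adjusted p between 0.0514 and 0.129, limma). Of the 6 genes tested 5 were called at day 2, where 42.8% of all genes were called, and 4 at day 3, where 55.1% were called. At day 1 it was 36.5% of all genes, so these counts stand beside a high background. Among those called, Apoa1, Apob and Ttr at day 2, and Apoa1 and Apob at day 3, passed the filter only through wild-type EB. The counts are therefore a description. At day 1 Apob and Ttr were at most 0.289 and 0.0807 TPM in either genotype, so the difference between the day 2 and day 1 effects, called for 19.9% of all genes, is in effect their change at day 2 (-1.40 and -3.06 on the log2 scale).
The PrE marker sum did not fall with the carriers. It was 417 and 416 TPM in Zbtb17 KO EB at day 3, against 368 and 377 TPM in wild-type EB. The decidua and stroma sum was higher, at 124 and 129 TPM in Zbtb17 KO EB at day 2, against 37.1 and 36.7 TPM in wild-type EB, and at 83.3 and 87.8 TPM in Zbtb17 KO EB at day 3, against 25.6 and 26.0 TPM in wild-type EB. The trophectoderm sum was 330 and 332 TPM in Zbtb17 KO EB at day 2, against 93.2 and 103 TPM in wild-type EB, and 271 and 276 TPM in Zbtb17 KO EB at day 3, against 246 and 252 TPM in wild-type EB. Their part in the carriers' differences was not tested. Within the PrE list, Foxa2, a regulator of endoderm, averaged 1.17 TPM in Zbtb17 KO EB, against 23.1 TPM in wild-type EB, and Dab2, Amn and Cubn fell too, while the basement membrane gene Col4a2 rose. At day 3, 11 of 14 receptor genes fell and 1 rose. The vitamin D carrier Gc ran opposite to the 4 carriers that fell, at a mean of 2.8 TPM in Zbtb17 KO EB and a listed 0 in wild-type EB.

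**Figure D2:**
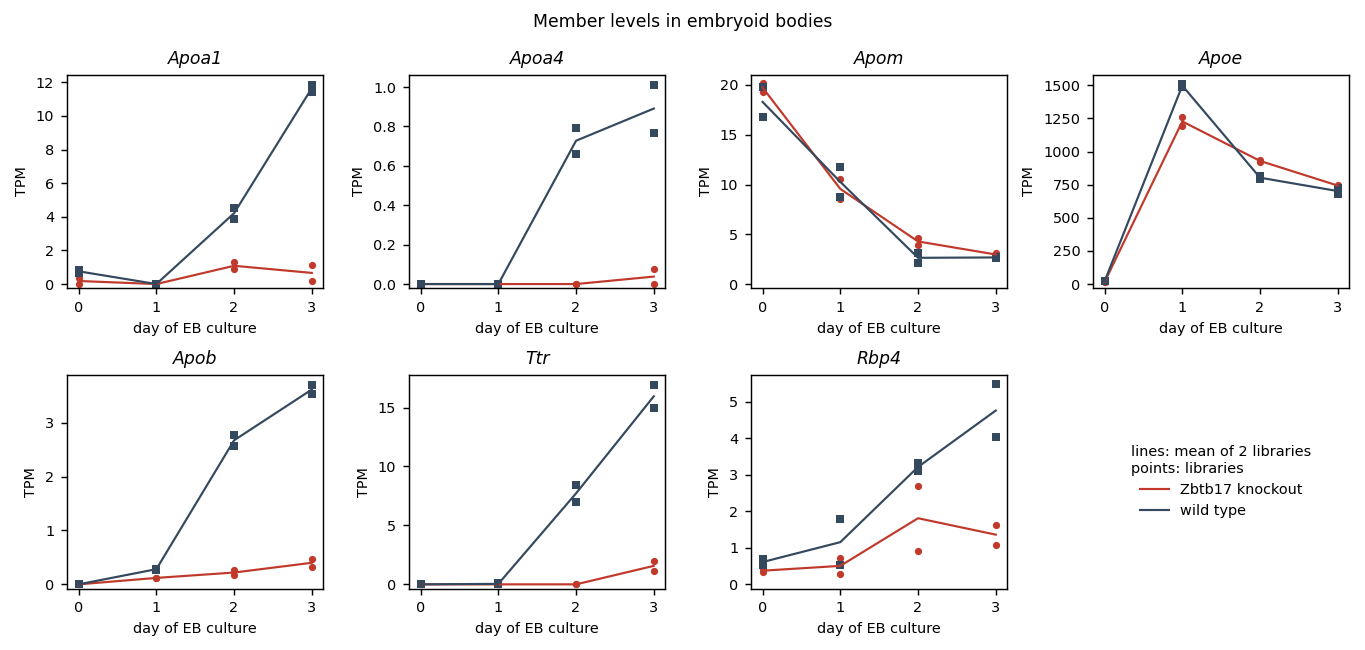
TPM of each of the 7 genes in EB at days 0, 1, 2 and 3, Zbtb17 KO first in the legend and wild type after it. Points are libraries and lines the means of 2 libraries. Ttr, Apoa1 and Apob part between the genotypes at days 2 and 3 and Rbp4 at day 3, and Apoe is lower in the knockout at day 1 and higher at day 2.

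Across the screen, at least 1 of the carriers was called in 38 of the 39 knockout groups tested, and Cbx2 KO, where 1.67% of all genes were called, had none. Of 180 pairs of a carrier and a knockout tested, 56 were called higher and 37 lower, where 5.04% and 5.10% of all 409451 pairs of a gene and a knockout were called. Without Apoe the counts were 43 and 26. Knockouts of 1 batch share their controls, so pairs within a batch are not independent, and in 11 knockouts a carrier was higher and another lower.
Each gene had its own pattern. Ttr was called higher in 11 and lower in 18 of 38 knockouts tested, Apoe higher in 13 and lower in 11 of 39, and Apoa1 higher in 11 and lower in 4 of 31. Apom was higher in 8 and lower in 2 of 38, and Rbp4 higher in 5 and lower in 2 of 21. Apoa4 was higher in 8 and lower in 0 of the 13 where it passed the filter of 1 TPM, which its low control levels (median 0, at most 3.93 TPM) bear on. Apob passed the filter in no knockout. A gene that reaches 1 TPM in 1 group alone passes the filter because it differs. In 17 of the 56 pairs called higher and 15 of the 37 called lower, too few libraries of the group with the lower mean reached 1 TPM to pass it, so the counts are a description.
In the 29 control libraries Apoa1 had a lowest value of 0, a median of 4.70 and a highest of 54.0 TPM, and Ttr 0, 17.1 and 67.2 TPM. Apoe was between 278 and 1287 TPM with a median of 613 TPM. Rbp4 was between 0 and 98.4 TPM with a median of 1.61 TPM, and its mean was 89.7 TPM in batch 6 and 0 in batch 3. Wild-type Epi of different batches thus differed widely in these genes.

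**Figure D3:**
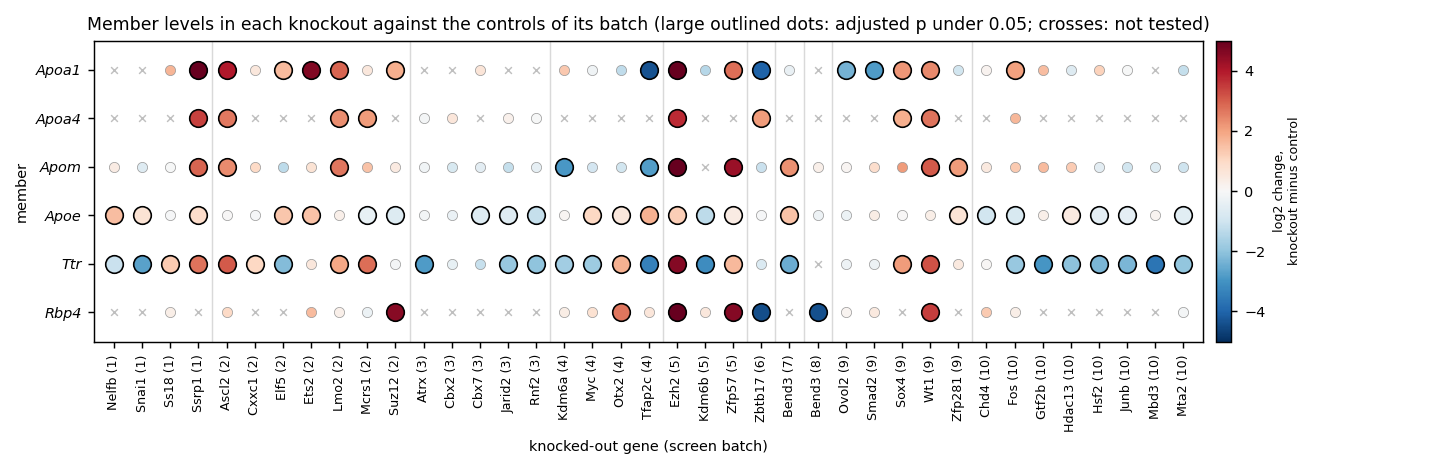
Log2 change on the log2(TPM + 1) scale, knockout minus the controls of its batch, of each gene (vertical) in each knockout of the screen (horizontal, batch in brackets). Large outlined dots passed at an adjusted p under 0.05 and crosses were not tested. The Ezh2 column has 6 genes higher, the Ttr row has 18 knockouts lower, and the Tfap2c column has Apoe higher with Apoa1, Apom and Ttr lower.

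Ezh2 KO, which lacks the catalytic subunit of PRC2, had the highest mean of all screen groups for each of the 7 genes, though for Apoa4, Apoe and Apob its libraries overlapped the next group. Apoa1 was at 1092, 922 and 895 TPM in Ezh2 KO Epi, against 1.57, 8.26 and 4.7 TPM in the controls of batch 5, higher by 7.56 ± 0.59 (log2, SE; adjusted p = 1.94e-20, limma). Rbp4 was at 435, 336 and 400 TPM in Ezh2 KO Epi, against 3.81, 0 and 9 TPM in controls, higher by 6.74 ± 0.72. Both were far apart from the controls in each library. For Rbp4, too few controls reached 1 TPM to pass the filter without the knockout libraries.
Ttr was at 343, 542 and 529 TPM in Ezh2 KO Epi, against 17.1, 13 and 26.8 TPM in controls (log2 change 4.59, adjusted p = 9.59e-19, limma). Apom was at 70.2, 79.1 and 89 TPM in Ezh2 KO Epi, against 0, 0 and 0.625 TPM in controls, and passed the filter only through the knockout libraries. Apoe was at 2460, 2122 and 2112 TPM in Ezh2 KO Epi, against 888, 1037 and 933 TPM in controls (log2 change 1.23, adjusted p = 1.82e-15, limma). For these 3 genes too no library overlapped.
Apoa4 was at 51.6, 5.59 and 5.79 TPM in Ezh2 KO Epi and listed at 0 in all 3 controls, so 1 knockout library held most of it. Apob was at 2.56, 4.32 and 0.46 TPM in Ezh2 KO Epi and was not tested. In this knockout 26.8% of all genes were called.
The PrE marker sum was 904, 867 and 970 TPM in Ezh2 KO Epi, against 137, 167 and 192 TPM in controls, the trophectoderm sum 6024, 3380 and 4990 TPM in Ezh2 KO Epi, against 2439, 2273 and 2098 TPM in controls, and 12 of 15 PrE markers rose and 0 fell. Apoa1 amounted to between 92.2 and 121 TPM for each 100 TPM of PrE markers in Ezh2 KO Epi. That is above the 16.6 to 18.2 of double knockout PrE and the 21.2 to 22.2 of control PrE in the other table, which was normalized separately. Its Apoa1 level lay near that of PrE, with a PrE marker sum of at most 970 TPM against at least 4477 TPM in PrE.
Other liver-type secreted genes were present in Ezh2 KO Epi. Of 6 other serum proteins tested 5 rose and 0 fell. The fibrinogen chains Fgb and Fgg averaged 16.9 and 11.8 TPM and Spp2 15 TPM in Ezh2 KO Epi, and all 3 were listed at 0 in controls. Apoc3, which lies between Apoa1 and Apoa4, averaged 11.4 TPM in Ezh2 KO Epi and was also listed at 0 in controls. Pparg, Gata4 and Gata6 rose, and the receptor Scarb1 fell to 4.43 TPM in Ezh2 KO Epi, against 32.4 TPM in controls.

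Knockout of Suz12, another PRC2 subunit, gave a different set. Rbp4 was at 50.5, 70 and 53 TPM in Suz12 KO Epi, against 1.61, 0 and 4.99 TPM in the controls of batch 2 (log2 change 4.54). For Rbp4, too few controls reached 1 TPM to pass the filter without the knockout libraries. Apoa1 was at 18.7, 36 and 16.9 TPM in Suz12 KO Epi, against 7.8, 6.39 and 3.59 TPM in controls (log2 change 1.82, adjusted p = 0.016, limma). Both were higher in each library, but the Apoa1 change did not pass without knockout replicate 2 (adjusted p = 0.114, limma) or control replicate 3 (adjusted p = 0.0944, limma), nor with a pseudocount of 0.1 (adjusted p = 0.229, limma).
Ttr was at 28.9, 34.6 and 35.8 TPM in Suz12 KO Epi, against 32.8, 37.1 and 37.2 TPM in controls, and overlapped (adjusted p = 0.888, limma). Apoe fell, at 372, 485 and 384 TPM in Suz12 KO Epi, against 634, 679 and 656 TPM in controls (log2 change -0.68, adjusted p = 2.29e-06, limma). In this knockout 21.9% of all genes were called. The PrE sum was between 523 and 603 TPM in Suz12 KO Epi, against 433, 379 and 381 TPM in controls, and the trophectoderm sum between 12950 and 13469 TPM in Suz12 KO Epi, against 4213, 4003 and 3972 TPM in controls. The Ezh2 and Suz12 knockouts are of different batches, and their difference was not tested.

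In libraries labelled as knockout of Ssrp1, a subunit of the histone chaperone FACT, 5 carriers were called higher, with a PrE marker sum close to that of controls. The Ssrp1 transcript overlapped, at 46.2 to 73.1 TPM in Ssrp1 KO Epi, against 54.9 to 70.1 TPM in controls. Apoa1 was at 142, 100 and 135 TPM in Ssrp1 KO Epi, against 0.273, 0.741 and 1.27 TPM in the controls of batch 1, higher by 6.19 ± 0.59 (log2, SE). Too few of these controls reached 1 TPM to pass the filter, so the knockout libraries carried Apoa1 into the test. Ttr was at 106, 142 and 135 TPM in Ssrp1 KO Epi, against 18.2, 23.7 and 14.9 TPM in controls (log2 change 2.71, adjusted p = 4.47e-08, limma). Apom was at 55.7, 40.9 and 30.6 TPM in Ssrp1 KO Epi, against 4.67, 10.6 and 1.64 TPM in controls (log2 change 2.92, adjusted p = 0.000337, limma). None of these overlapped, and 6.62% of all genes were called in this knockout.
Apoe was at 1329, 1199 and 1235 TPM in Ssrp1 KO Epi, against 693, 655 and 633 TPM in controls (log2 change 0.92, adjusted p = 1.54e-09, limma). Apoa4 was at 4.09, 8.09 and 26.5 TPM in Ssrp1 KO Epi and listed at 0 in controls. Rbp4, in contrast, stayed at or under 0.353 TPM in Ssrp1 KO Epi.
The PrE sum was 475, 497 and 469 TPM in Ssrp1 KO Epi, against 465, 489 and 469 TPM in controls, and the trophectoderm sum 5028, 4721 and 5112 TPM in Ssrp1 KO Epi, against 2935, 2967 and 2921 TPM in controls. Of 19 PrE markers 2 rose and 3 fell. Dab2 rose to a mean of 84.3 TPM in Ssrp1 KO Epi, against 27.7 TPM in controls, and Sox17 fell to 0.0295 TPM in Ssrp1 KO Epi, against 5.09 TPM in controls.

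Further knockouts raised several carriers. In Wt1 KO, where 0.546% of all genes were called, 5 of the carriers were called higher. Ttr was at 43.1, 47.9 and 49.3 TPM in Wt1 KO Epi, against 5.05, 3.35 and 4.6 TPM in the controls of batch 9 (log2 change 3.18, adjusted p = 4.9e-10, limma). Apoa1 was at 82.8, 80.3 and 81.7 TPM in Wt1 KO Epi, against 14.7, 14.7 and 14.3 TPM in controls (log2 change 2.41, adjusted p = 0.0181, limma). Rbp4 was at 24.6, 24 and 20.2 TPM in Wt1 KO Epi, against 0.698, 0.957 and 2.08 TPM in controls (log2 change 3.46). Apoa4 was between 9.94 and 14.9 TPM in Wt1 KO Epi, against 0.823 to 1.28 TPM in controls. Too few controls reached 1 TPM for Rbp4 or Apoa4 to pass the filter without the knockout libraries, so the count of 5 is a description. The knockout libraries were higher throughout. The PrE sum was 409, 411 and 482 TPM in Wt1 KO Epi, against 269, 268 and 321 TPM in controls.
In Sox4 KO, compared with the same 3 controls, Apoa1, Apoa4 and Ttr were called higher. Apoa1 was at 70.9, 74 and 67.9 TPM (log2 change 2.21, adjusted p = 0.0286, limma). Ttr was between 18.7 and 24.8 TPM in Sox4 KO Epi, against 3.35 to 5.05 TPM in controls. Apoa4 was between 4.85 and 7.44 TPM in Sox4 KO Epi, against 0.823 to 1.28 TPM in controls. It passed the filter only through the knockout libraries, and its call was lost with a pseudocount of 0.1 (adjusted p = 0.446, limma). No PrE marker of 12 tested was called, and 1.23% of all genes were. The PrE sum lay between 239 and 298 TPM in Sox4 KO Epi, against 268 to 321 TPM in controls. The Apoa1 calls of Wt1 and Sox4 KO were lost without control replicate 1, 2 or 3, or without knockout replicate 2 or 3 (adjusted p between 0.0602 and 0.195, limma). Each of these fits dropped that replicate number from all control groups or all knockout groups of the screen. Neither call passed with a pseudocount of 0.1 (adjusted p = 0.9999 and 0.872, limma). That setting also ended the Rbp4, Apoa4 and Apom calls of Wt1 KO (adjusted p = 0.578, 0.0909 and 0.121, limma) and left Ttr as its 1 call.
In Ets2 KO, Apoa1 was at 166, 193 and 139 TPM, against 7.8, 6.39 and 3.59 TPM in the controls of batch 2 (log2 change 4.63, adjusted p = 3.04e-10, limma), while Ttr was not called (adjusted p = 0.307, limma). In Ets2 KO the PrE sum was 1199, 1079 and 1018 TPM, against 433, 379 and 381 TPM in controls, and the trophectoderm sum 9322, 8534 and 8278 TPM in Ets2 KO Epi, against 4213, 4003 and 3972 TPM in controls. In the 2 libraries labelled Ascl2 KO, where the Ascl2 transcript itself was higher than in controls, Ttr was at 272 and 337 TPM, against 32.8, 37.1 and 37.2 TPM in the same controls (log2 change 3.05, adjusted p = 2.47e-08, limma). Apoa1 was at 87.9 and 128 TPM in those libraries (adjusted p = 2.32e-06, limma). Both knockouts thus had high Apoa1, with 23.4% of all genes called in Ets2 KO and 6.94% in the libraries labelled Ascl2 KO.
In Zfp57 KO, where 16.8% of all genes were called, Rbp4 was at 69.8, 93.4 and 103 TPM, against 3.81, 0 and 9 TPM in the controls of batch 5 (log2 change 4.61). Too few of those controls reached 1 TPM for it to pass the filter without the knockout libraries. Rbp4 exceeded Apoa1, at 39.7, 49.2 and 21.9 TPM, in each Zfp57 KO library.

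High PrE markers did not always come with high levels of all the carriers. In libraries labelled as knockout of Chd4, the NuRD remodeler ATPase, whose transcript overlapped that of controls, the PrE sum was between 1622 and 1667 TPM in knockout Epi, against 148 to 174 TPM in the controls of batch 10, and 17 of 18 PrE markers rose and 0 fell. Apoa1 was at 2.44, 3.34 and 4.58 TPM in Chd4 KO Epi, against 5.54, 0 and 8.08 TPM in controls (adjusted p = 0.945, limma). Ttr was at 19.9, 21 and 14.1 TPM in Chd4 KO Epi, against 22.6, 17.4 and 12.9 TPM in controls (adjusted p = 0.966, limma). The groups overlapped for both. Apoe fell, at 368, 386 and 410 TPM in Chd4 KO Epi, against 797, 888 and 613 TPM in controls (log2 change -0.96, adjusted p = 1.29e-10, limma), where 7.47% of all genes were called.
In Mcrs1 KO the PrE sum was between 2556 and 2842 TPM, against 379 to 433 TPM in the controls of batch 2. Ttr rose, at 256, 247 and 252 TPM in Mcrs1 KO Epi, against 32.8, 37.1 and 37.2 TPM in controls (log2 change 2.78, adjusted p = 5.29e-09, limma). Apoa1 did not pass, at 9.44, 12.7 and 5.66 TPM in Mcrs1 KO Epi, against 7.8, 6.39 and 3.59 TPM in controls (adjusted p = 0.594, limma). Apoa4 was called higher, at a mean of 4.65 TPM in Mcrs1 KO Epi, against 0.311 TPM in controls, and passed the filter only through the knockout libraries. Apoe was called lower, at a mean of 496 TPM in Mcrs1 KO Epi, against 656 TPM in controls. The Apoe call was lost without knockout replicate 1 (adjusted p = 0.0872, limma). In this knockout 16.9% of all genes were called.
The controls of batch 3 had PrE sums between 1812 and 1894 TPM with Apoa1 at 0.142, 1.33 and 0 TPM and Rbp4 listed at 0. These controls had Ttr between 22.1 and 26.2 TPM, where the median of all 29 control libraries was 17.1 TPM, and Apoa4 between 0.518 and 3.49 TPM. Their Apom, at 69.2, 61.4 and 53.7 TPM, and Apoe, with a mean of 1221 TPM, were the highest of the control groups.

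**Figure D4:**
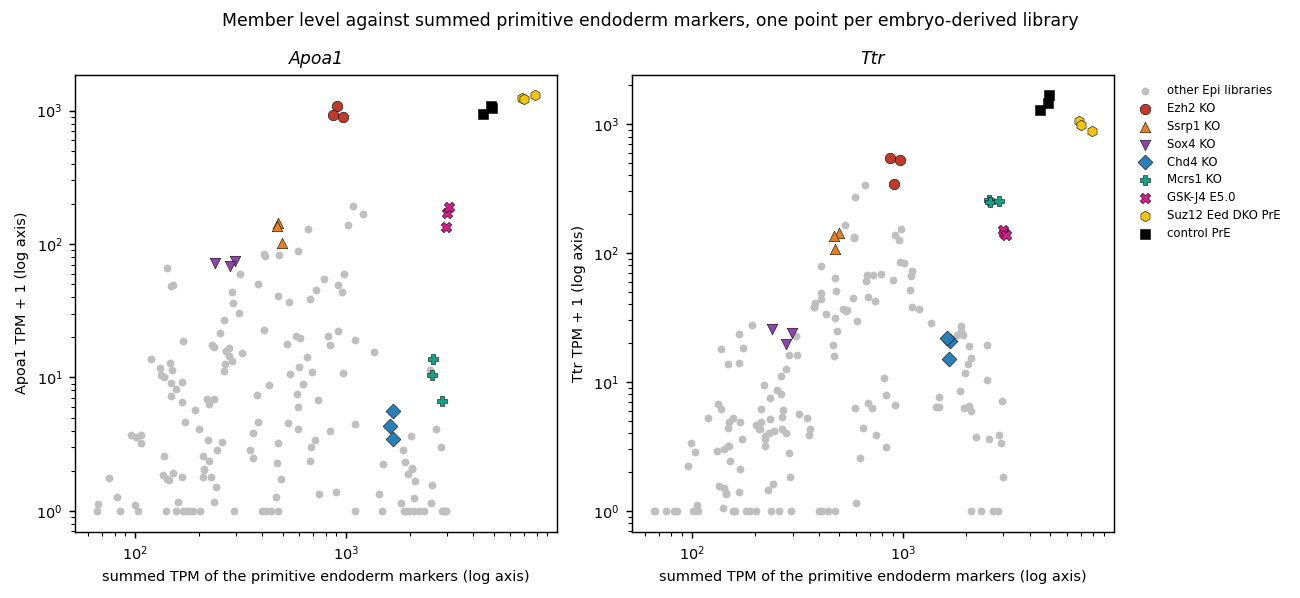
TPM + 1 of Apoa1 (left) and Ttr (right) against the summed TPM of 20 PrE markers, both on log axes, 1 point per embryo-derived library. Ezh2 KO lies at PrE-like Apoa1 with a PrE sum of at most 970 TPM, and Chd4 and Mcrs1 KO lie at Apoa1 levels of at most 12.7 TPM with a PrE sum of 1622 TPM or more. Grey points are the other libraries labelled Epi.

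Knockouts that lowered the carriers differed in which ones they lowered. In Tfap2c KO, which lacks a trophectoderm and germline factor, Apoa1 was at 0.163, 0 and 0 TPM, against 20.4, 26.1 and 15.8 TPM in the controls of batch 4. Ttr was at 0, 0 and 0.0431 TPM in Tfap2c KO Epi, against 7.61, 10.1 and 11.7 TPM in controls, which alone carried both genes past the filter. Apoe rose in the same libraries, at 1185, 1194 and 1136 TPM in Tfap2c KO Epi, against 278, 368 and 381 TPM in controls (log2 change 1.79, adjusted p = 1.84e-24, limma). Apoe therefore moved opposite to Apoa1 and Ttr, without overlap in any of the 3 genes, and 13.5% of all genes were called.
The H3K27 demethylases that GSK-J4 inhibits were also targeted singly. The Kdm6a transcript was lower in every Kdm6a KO library than in its controls. That of Kdm6b overlapped, at 2.85 to 6.12 TPM in libraries labelled Kdm6b KO, against 2.95 to 15.4 TPM in controls. In Kdm6a KO, Ttr was at 2.01, 1.45 and 3.42 TPM, against 7.61, 10.1 and 11.7 TPM in the controls of batch 4 (log2 change -1.74, adjusted p = 0.000627, limma). Apom was at 0.518, 0.909 and 2.26 TPM in Kdm6a KO Epi, against 16.3, 14.9 and 13.2 TPM in controls (log2 change -2.90). Too few knockout libraries reached 1 TPM for Apom to pass the filter without the controls. Apoa1 was at 65.5, 48.4 and 47.1 TPM in Kdm6a KO Epi, against 20.4, 26.1 and 15.8 TPM in controls, higher in each library and not called (log2 change 1.34, adjusted p = 0.154, limma). In this knockout 9.33% of all genes were called, and Apoa1 made up 93.2% to 97.1% of Apoa1 and Ttr in Kdm6a KO Epi, against 57.4% to 72.8% in controls.
In Kdm6b KO, where 22.7% of all genes were called, Ttr was at 1.21, 1.88 and 0.548 TPM, against 17.1, 13 and 26.8 TPM in the controls of batch 5 (log2 change -3.16). Too few knockout libraries reached 1 TPM for Ttr to pass the filter without the controls. Apoe was at 417, 394 and 341 TPM in Kdm6b KO Epi, against 888, 1037 and 933 TPM in controls (log2 change -1.31, adjusted p = 1.21e-16, limma). Both fell in each library. Neither single knockout had the 6 carriers higher that GSK-J4 treated Epi had at E5.0. The treatment and the knockouts are in different tables, and this difference was not tested.
Rbp4 fell in the Bend3 KO of batch 8, at 1.13, 0.671 and 4.62 TPM, against 78.6, 53.1 and 40.9 TPM in its controls (log2 change -4.38), where 28.7% of all genes were called. Too few of these knockout libraries reached 1 TPM for Rbp4 to pass the filter without the controls. The titles of batch 8 give stage 6.0 for both groups. In batch 10, Ttr was called lower in 7 of 8 knockouts, all set against the same 3 controls at 22.6, 17.4 and 12.9 TPM. Over the whole screen, 5.10% of all pairs of a gene and a knockout were called lower. In batch 3 Ttr was called lower in Atrx, Jarid2 and Rnf2 KO, where 3.52%, 1.79% and 1.90% of all genes were called. These shared controls make such counts dependent. In Gtf2b, Mbd3 and Atrx KO, too few knockout libraries reached 1 TPM for Ttr to pass the filter without the controls.

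The genes most alike in pattern were sought over 146 screen libraries as Pearson's r of log2(TPM + 1) after subtracting each batch's mean, among 11994 genes. For Apoa1 these were the protease Prss12 (r = 0.702), the trypsin inhibitor Spink1 (r = 0.633) and Apoa4 (r = 0.628). For Ttr they were Pga5, a pepsinogen (r = 0.735), Spink1 (r = 0.663) and Amot (r = 0.613). Spink1 and Amot were also first and second for Apom (r = 0.652 and 0.605), followed by Ttr (r = 0.603).
Rbp4 was most like the selenium carrier Selenop (r = 0.529), Sfrp1 (r = 0.514) and Spink1 (r = 0.509). Apoe stood apart, with Trh (r = 0.741), Tdh (r = 0.714) and Slc7a7 (r = 0.687) as its nearest genes and an r between -0.019 and 0.269 with the other carriers. Among the carriers other than Apoe and Apob, r ran from 0.219 to 0.628. Libraries of 1 knockout share their embryos' treatment and all share a fixed total of TPM, so these values are descriptions.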

How the data were processed

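The authors deposited TPM per gene for 200 Smart-seq2 libraries in 7 tables. The submitters' processing notes name HISAT2 2.2.1, StringTie 2.2.1, Cufflinks and mm10, without their roles. TPM keep no read counts, so the depth of each library and counting error are unknown. Genes at 1 TPM or more per library numbered between 3986 and 13512.

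Members and gene lists were chosen with earlier results of these data known. Values were tested as log2(TPM + 1), which understates changes of low genes, with limma 3.58.1 in R 4.3.3 (eBayes with trend, two-sided, Benjamini-Hochberg adjustment over all genes of a comparison, threshold 0.05). A gene was tested where the number of libraries at 1 TPM or more reached the size of the smaller group. Each table was fitted alone, and the screen in 1 fit with contrasts within batches. All 7 members were named, and per list up to 4 genes that passed with groups apart, by size of change. Scripts were tested on simulated data. EB gene names rest on row order: log2 values correlated with the screen at r = 0.8909 across genes in order, and at most 0.1126 when shifted. Batch in the screen is the batch of the sample titles. Same-numbered libraries deviated together (r between 0.161 and 0.344) in Suz12 Eed Epi and (0.132 to 0.454) in Wt1 KO, where titles share numbers, and replicate blocks were an alternative, with pseudocounts, filters, quantile normalization, within-batch fits and left-out replicates. A replicate left out in the screen was dropped by number from all control groups or all knockout groups at once. In EB it was dropped from 1 genotype on all days. Promoters are from RefSeq (GRCm38.p6), positions from GENCODE vM21. Python 3.11.15 was used. Unused per-sample columns: 0.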

Additional observations from a re-analysis of the deposited data

Results flagged for a closer look

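The effect of the Suz12 Eed double knockout differed between PrE and Epi for 3 carriers, as log2 change in PrE minus that in Epi. The difference was -1.36 for Apoa1 (adjusted p = 0.0158, limma), -2.93 for Ttr (adjusted p = 0.00372, limma) and 1.14 for Apoe (adjusted p = 0.00727, limma). The Apoa1 difference did not pass with no filter (adjusted p = 0.0605, limma) or without control PrE replicate 1 (adjusted p = 0.0551, limma).

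In EB, the effect of the Zbtb17 knockout was set against that of the day before. Apoa1 was listed at 0 in all 4 day 1 libraries, and Apob and Ttr were at most 0.289 and 0.0807 TPM there, so for these 3 genes the day 2 minus day 1 difference is in effect the change at day 2. From day 1 to day 2, the difference of the log2 changes was -1.33 for Apoa1, 0.50 for Apoe, -1.40 for Apob and -3.06 for Ttr. At day 2 Apoa1, Apob and Ttr passed the filter only through wild-type EB, so no p is given for them. The Apoa1 difference did not pass with a pseudocount of 0.1 (adjusted p = 0.299, limma) or with quantile normalization (adjusted p = 0.332, limma). Without wild-type replicate 1 or 2, which left 1 library a day in that genotype, it was -1.24 and -1.41. From day 2 to day 3 the Apoa1 difference was -1.66, where wild-type EB again carried Apoa1 past the filter on both days. It did not pass with a pseudocount of 0.1 (adjusted p = 0.173, limma) or with quantile normalization (adjusted p = 0.29, limma). Without wild-type replicate 1 or 2 it was -1.73 and -1.60.

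The 3 nearly identical Aurkb KO libraries entered no test. Apoa1 was at 2.52 TPM over these libraries, where the controls of batch 1 had 0.273, 0.741 and 1.27 TPM. Apoe was at 957 TPM over these libraries, where the same controls had 693, 655 and 633 TPM. Ttr was listed at 0, 0 and 0.112 TPM in the Aurkb KO libraries.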

How the results depend on the processing

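Of the alternatives run on single carriers, 2834 values kept direction and call or moved within the spread, 144 lost a call, 45 gained one, 80 moved and 4 reversed. Losses were most frequent with a pseudocount of 0.1. The 4 reversals all came with quantile normalization of wild-type EB against day 0, to -1.26 at day 2 and -0.14 at day 3 for Apoa1, and to -1.24 and -0.82 for Rbp4. The number of carriers called changed by over 1.5 times in the cases given here, and the causes were not tested. For GSK-J4 at E4.5 the 1 call became 0 with no filter and 0 to 0 with 1 library left out. For double knockout PrE the 1 call became 0 with no filter, 2 with nearly identical libraries kept apart, 4 with only the compared groups fitted, and 0 to 2 with 1 library left out. With the replicate block it became 2, as Apom passed (adjusted p = 0.0413, limma), though same-numbered libraries did not all deviate together in PrE. The block otherwise changed only Apoe in double knockout Epi. For Zbtb17 KO EB the 5 calls at day 2 became 3 with quantile normalization, and the 1 call of a difference between days 3 and 2 became 0 with it. Leaving out 1 EB replicate left 1 library a day in that genotype. For wild-type EB at day 1 against day 0, 2 calls became 4 with no filter. In the screen the 93 calls became 70 with a pseudocount of 0.1, 94 within batches and 82 to 88 with 1 replicate left out. Smaller changes concerned single carriers. In double knockout Epi the Apom call was lost with no filter or with only the compared groups fitted, and an Apoe call was gained with the block. In PrE minus Epi the Apoa1 call was lost with no filter, and in EB day 2 minus day 1 with a pseudocount of 0.1, quantile normalization or either wild-type replicate left out. TPM give no depth, so low values carry an unknown counting error.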
